A study of Homo sapiens with 5 samples.

Results

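The proteasome subunit genes were taken as every listed symbol made of PSMA, PSMB, PSMC or PSMD and a number with nothing after it, without PSMB8 and PSMB9. This gave 37 of the 26364 listed genes, of which 17 encode the core particle (PSMA and PSMB) and 20 the regulatory particle or its chaperones (PSMC and PSMD). They were measured by mRNA-seq in growing cultures of the normal human lung fibroblast line IMR-90, 24 hr after siRNA transfection. There were 5 libraries. Of these, 2 were Ctr-KD (Ctr-1 and Ctr-2), transfected with a control siRNA against luciferase, a gene that human cells lack. The other 3 were NSD2-KD (NSD2-1, NSD2-2 and NSD2-3), each transfected with another siRNA against NSD2, a histone methyltransferase. Each siRNA was used in 1 library, so within NSD2-KD the siRNA and the replicate cannot be told apart. The study compared the groups to learn which genes depend on NSD2 in these fibroblasts, and the proteasome genes are described here within that comparison.

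The proteasome is the protease that degrades most short-lived and damaged proteins of a cell once they carry ubiquitin. Its core particle is a barrel of alpha and beta rings, with the proteolytic sites on the inner face of the beta rings. The regulatory particle caps the barrel, recognizes ubiquitin, removes it, and unfolds the substrate with a ring of ATPases that also opens the gate of the alpha ring. Because the subunits are needed together, their genes are known to be transcribed in concert, in mammals mainly through NFE2L1, a membrane-bound factor of the endoplasmic reticulum that binds antioxidant response elements with a small MAF partner. In fibroblasts the activity of the proteasome is known to decline during replicative senescence.

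The promoters were searched for sequence that the subunit genes share, since it is through such elements that they are known to be transcribed together. RefSeq promoter windows (GRCh38.p14, 250 bases before to 50 bases after a start) were found for 32 of the 37 genes. None was found for PSMA7, PSMB1, PSMB6, PSMB7 and PSMD4. The core of the antioxidant response element, TGACNNNGC on either strand, was present in 9 of the 32, against 16.1% of all genes with a window. It was present in 2 of 13 core particle genes and in 7 of 19 regulatory particle genes. CCAAT was present in 17 of the 32 (39.7% of all genes), GGGCGG in 20 (48.3%) and CCGGAAG in 12 (12.2%), on either strand. CCGGAAG, an ETS-type element, was present in 10 of 19 genes of the regulatory particle or its chaperones, among them the chaperone PSMD9. It was present in 2 of 13 core particle genes, PSMA6 and PSMA8, and PSMA8 had 0 counts in every library. A match describes letters in a window and does not show that a factor binds there. In 7 of the 9 genes a match lay before the start. Of these, 5 are shown: PSMD3, the member with the largest difference between the groups, and 1 gene each of the alpha ring (PSMA4), the beta ring (PSMB3), the ATPases (PSMC5) and the other non-ATPase subunits (PSMD12). They are written 5′ to 3′ along the gene strand, with the element in capitals (its reverse complement in PSMC5).
PSMD3: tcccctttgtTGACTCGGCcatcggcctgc
PSMA4: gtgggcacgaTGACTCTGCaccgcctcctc
PSMB3: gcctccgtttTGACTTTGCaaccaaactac
PSMC5: gaccggatctGCTGTGTCAgcgccgccctc
PSMD12: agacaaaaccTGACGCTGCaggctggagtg
These runs lie at chr17:39980760-39980789 (plus strand) for PSMD3, chr15:78540650-78540679 (plus) for PSMA4, chr17:38752627-38752656 (plus) for PSMB3, chr17:63827654-63827683 (plus) for PSMC5 and chr17:67366723-67366752 (minus) for PSMD12. In PSMD3 the element begins 37 bases before the start, and in the others 57 to 165 bases before it. PSMD3 has a second match, on the opposite strand, 33 bases after the start.

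Values are normalized counts, that is, reads on a gene divided by one size factor per library. Reads on genes ranged from 2473691 to 2845063 per library, and 1 read was worth 0.920 to 1.09 normalized counts. NSD2, listed under its older symbol WHSC1, had 463 and 443 normalized counts in Ctr-KD and 90.2, 81.9 and 87.9 in NSD2-KD. It was lower in 3 of 3 NSD2-KD libraries, by a log2 difference of -2.37 (SE 0.12, adjusted p = 0.000464 by limma). In bulk libraries such as these, fewer cells with a transcript and less of it per cell cannot be told apart. All 9 fibroblast markers examined were tested, and none passed the threshold. Their summed level lay between 202229 and 228133 in every library, whereas the endothelial markers PECAM1 and CDH5, the leukocyte markers PTPRC and CD3E and the epithelial marker KRT5 were at 0. The summed level was at most 26.2 for the 4 epithelial markers, 5.52 for the 3 endothelial, 2.18 for the 3 leukocyte and 22.1 for the 2 smooth muscle markers. Most of the epithelial sum was CLDN4, with 8.57 and 10.3 in Ctr-KD and 12.9, 24.0 and 10.7 in NSD2-KD (adjusted p = 0.689 by limma). VWF reached 5.52 and MYH11 22.1, and EPCAM, CDH1, CD14 and DES had at most 2.18 in any library. Between the Ctr-KD libraries the counts differed little more than by counting error. Their chi-square over 11352 genes, divided by its degrees of freedom, was 1.05. It was 4.11 to 5.51 for pairs between the groups and 5.39 to 5.72 for pairs within NSD2-KD. The spread within NSD2-KD takes in any difference between siRNAs and between replicates, which cannot be told apart. The spread within Ctr-KD may be technical.

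Of the 37 genes, 35 passed the minimum of 10 normalized counts on average over the libraries. The others are known for expression in particular tissues. PSMA8, an alpha subunit of the testis, was at 0 in all 5 libraries, and PSMB11, a beta subunit of the thymus, had 1 read in all, in NSD2-2. A count of 0 allows up to 3 reads, or 2.76 to 3.28 normalized counts, and no difference was detectable at this depth for either. The 35 tested genes together took between 0.380% and 0.402% of all counts in each library. Of the 37 genes, 15 have a named pseudogene and 13 share exon positions with another annotated gene, among them PSMA6, PSMB5, PSMB10, PSMD1 and PSMD11, and their counts are less certain for that reason.

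No proteasome subunit gene passed an adjusted p of 0.05 (limma on log2(normalized count + 1), Benjamini-Hochberg over 11313 genes), in either direction. Over all tested genes, 0.0530% were called lower and 0.0354% higher. Before adjustment, with p under 0.05, no member was lower (background 4.99%) and 2 were higher (background 4.19%), PSMD3 and PSMA3. By edgeR's quasi-likelihood test on the recovered reads no member passed an adjusted p of 0.05 (0.141% of genes called in either direction) and 2 had an unadjusted p under 0.05. By DESeq2 no member passed that threshold (0.523% called), and PSMD3 alone had an unadjusted p under 0.05. The median log2 difference of the 35 genes was -0.0011, against -0.0089 over all tested genes.

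**Figure D1:**
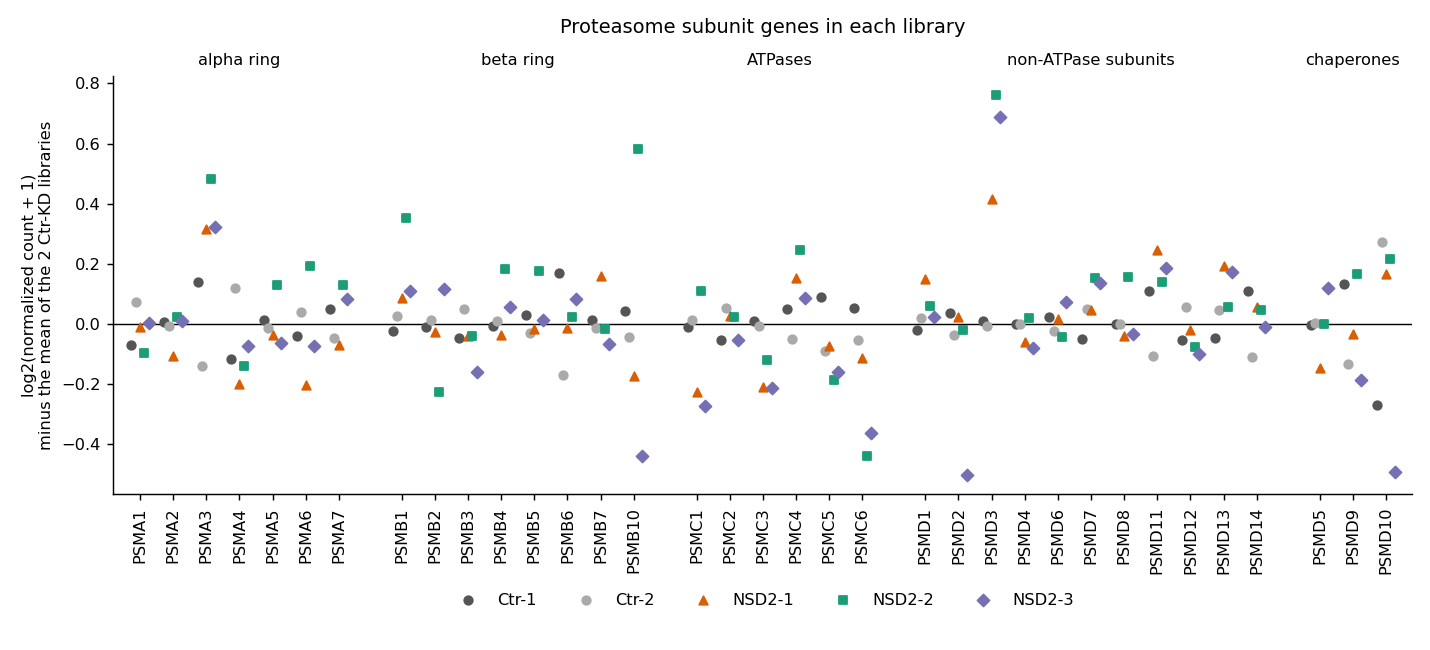
Each point is 1 library, with log2(normalized count + 1) of a tested proteasome gene minus the mean of the Ctr-KD libraries on the vertical axis and the genes by role along the horizontal axis (circles, Ctr-KD; triangles, NSD2-1; squares, NSD2-2; diamonds, NSD2-3). Most points lie near 0, and the 3 NSD2-KD points of PSMD3 lie between 0.42 and 0.76. A single point stands apart for PSMD2 (NSD2-3). PSMB10 has NSD2-2 above and NSD2-3 below, and the points of PSMD10 are spread widely in both groups.

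With Ctr-1 and Ctr-2 taken as separate replicates, the data limited most members to small differences. If the spread between these libraries is technical, the intervals may be too narrow. For 30 of the 35 genes the 95% interval of the difference lay within a 1.5-fold change in both directions, which was so for 45.0% of all tested genes and for 63.2% of those with a mean of at least 50 normalized counts. The 5 exceptions were PSMA3, PSMB10, PSMC6, PSMD3 and PSMD10. In 26 of the 35 genes the groups overlapped. All NSD2-KD libraries lay above both Ctr-KD libraries for 7 genes, PSMA3, PSMB1, PSMC4, PSMD1, PSMD3, PSMD11 and PSMD13, where 13.8% of all tested genes did so. They lay below both for 2 genes, PSMC3 and PSMC6, where 13.9% of all tested genes did so.

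**Figure D2:**
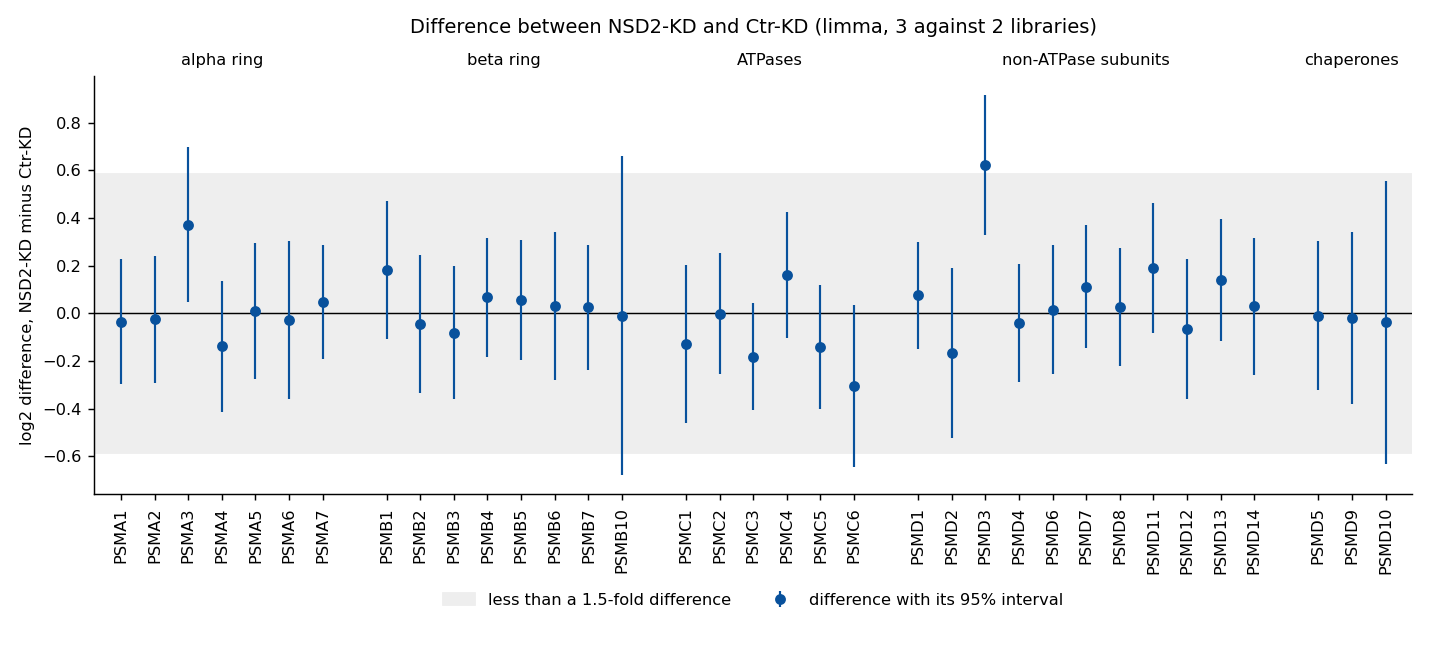
Points give the limma log2 difference of NSD2-KD minus Ctr-KD for the 35 tested proteasome genes, bars the 95% interval, and the grey band differences under 1.5-fold. The intervals of PSMD3 and PSMA3 alone leave out 0, before adjustment over all genes, and 30 intervals stay inside the band.

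The alpha ring forms the outer gate of the core particle, and its 7 tested genes had a median log2 difference of -0.024. PSMA3 had 151 and 124 normalized counts in Ctr-KD and 171, 192 and 172 in NSD2-KD. All NSD2-KD libraries lay above both Ctr-KD libraries, and the log2 difference was 0.37 (SE 0.14, 95% interval 0.05 to 0.70), with an unadjusted p of 0.0301 and an adjusted p of 0.469 by limma. Without Ctr-2, the lower control library, the difference was 0.23 and its unadjusted p 0.260, and by DESeq2 the unadjusted p was 0.0948. PSMA3 lies on chromosome 14, from 58711561 to 58738730 (hg19), and has 1 named pseudogene that could take some of its reads. PSMA4 had 290 and 342 normalized counts in Ctr-KD and 273, 285 and 299 in NSD2-KD. Its groups overlapped, since Ctr-1 lay among the NSD2-KD values (log2 difference -0.14, SE 0.12). PSMA7 was the alpha subunit gene with the most counts, with 585 and 547 in Ctr-KD and 539, 619 and 599 in NSD2-KD, again with overlap (0.05, SE 0.10). PSMA1 had 247 and 273 in Ctr-KD and 258, 242 and 260 in NSD2-KD, and its difference of -0.03 was below its SE of 0.11. The 3 alpha subunit genes not given by library, PSMA2, PSMA5 and PSMA6, had differences between -0.03 and 0.01.

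The proteolytic sites of the beta ring belong to PSMB5, PSMB6 and PSMB7, and none of these genes differed between the groups beyond its error. PSMB5, the chymotrypsin-like subunit, had 374 and 359 normalized counts in Ctr-KD and 363, 414 and 370 in NSD2-KD. PSMB6, the caspase-like subunit, had 254 and 201 in Ctr-KD and 224, 229 and 239 in NSD2-KD. PSMB7, the trypsin-like subunit, had 326 and 320 in Ctr-KD and 361, 319 and 308 in NSD2-KD. The groups overlapped for each, and the log2 differences were 0.06, 0.03 and 0.03 with 95% intervals of -0.19 to 0.31, -0.28 to 0.34 and -0.24 to 0.29. For PSMB6 the Ctr-KD libraries lay farther apart than any NSD2-KD library lay from another.

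PSMB10, which replaces PSMB7 when interferon induces the immunoproteasome, had 59.1 and 55.6 normalized counts in Ctr-KD and 50.6, 86.3 and 42.0 in NSD2-KD. NSD2-2 stood above both Ctr-KD libraries and the other NSD2-KD libraries below both, and the log2 difference was -0.01 with a 95% interval of -0.68 to 0.66. The exact Poisson 95% interval, which covers counting error only, began at 68.3 in NSD2-2 and reached 75.7 in Ctr-1 and 72.5 in Ctr-2. The interval of NSD2-2 thus overlapped those of both Ctr-KD libraries. A difference against the Ctr-KD mean at least as high as that of PSMB10 in NSD2-2 was seen in 4.46% of tested genes in that library. None of the 12 interferon-induced genes examined passed the threshold, and 8 had enough counts to be tested. Their summed level was 922 and 886 in Ctr-KD and 860, 977 and 949.8 in NSD2-KD. NSD2-2 was thus the highest library for both, but NSD2-3, with the lowest PSMB10 count, had the second highest sum. The part of interferon signalling in the PSMB10 values was not tested.

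Among the structural beta subunit genes, PSMB1 had 228 and 236 normalized counts in Ctr-KD and 246, 296 and 250 in NSD2-KD. All NSD2-KD libraries lay above Ctr-KD, with NSD2-2 the highest (log2 difference 0.18, SE 0.13, unadjusted p = 0.188 by limma). PSMB2 had 352 and 358 in Ctr-KD and 349, 304 and 385 in NSD2-KD, where NSD2-2 was the lowest library and NSD2-3 the highest. PSMB3 had 184 and 196.5 in Ctr-KD and 185, 185 and 170 in NSD2-KD, and PSMB4 had 376 and 381 in Ctr-KD and 369, 429 and 393 in NSD2-KD. The groups overlapped for PSMB2, PSMB3 and PSMB4, whose log2 differences of -0.05, -0.08 and 0.07 were below their SE. The median over the 8 tested genes of the beta ring was 0.03.

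The ATPases unfold the substrate, and 5 of their 6 genes had a log2 difference below 0, with a median of -0.14. Of all tested genes, 5822 of 11313 lay below 0. PSMC6 had 170 and 157 normalized counts in Ctr-KD and 151, 120 and 127 in NSD2-KD. All NSD2-KD libraries lay below both Ctr-KD libraries, NSD2-1 only just (log2 difference -0.31, SE 0.15, unadjusted p = 0.0719, adjusted p = 0.592 by limma). PSMC3 had 481 and 475 in Ctr-KD and 413, 440 and 412 in NSD2-KD, likewise without overlap (-0.18, SE 0.10, unadjusted p = 0.101 and adjusted p = 0.634 by limma). PSMC4 was the ATPase gene whose NSD2-KD libraries lay above Ctr-KD, with 252 and 236 in Ctr-KD and 271, 289 and 259 in NSD2-KD (0.16, SE 0.11). The summed counts of the 6 ATPase genes were 1750 and 1700 in Ctr-KD and 1627, 1673 and 1549 in NSD2-KD, so that every NSD2-KD library lay below both Ctr-KD libraries. The NSD2-KD mean was 0.937 of the Ctr-KD mean. This separation depended on PSMC3, the ATPase gene with the most counts, since without it NSD2-2 lies above Ctr-2. The summed counts of the alpha ring, the beta ring, the non-ATPase subunits and the chaperones each overlapped between the groups. Among single tested genes, 13.9% lay below both Ctr-KD libraries in all NSD2-KD libraries, but that share is no background for a sum of 6 genes. The groups overlapped for PSMC1, PSMC2 and PSMC5, with log2 differences of -0.13, -0.0011 and -0.14. PSMC1 has 13 named pseudogenes and PSMC2 and PSMC5 share exon positions with other genes, so their counts are uncertain where reads could not be assigned to one gene. PSMC6 lies on chromosome 14, from 53173896 to 53195308, and PSMC3 on chromosome 11, from 47440320 to 47448024 (hg19).

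The non-ATPase subunits recognize ubiquitin, remove it and hold the particle together, and the median log2 difference of their 11 genes was 0.03. PSMD3, a structural subunit of the lid, gave the largest difference of all members. Its normalized counts were 295 and 292 in Ctr-KD and 392, 498 and 474 in NSD2-KD. All NSD2-KD libraries lay far above both Ctr-KD libraries, which differed from each other by less than counting error. For these libraries the exact Poisson 95% intervals, which cover counting error only, reached at most 330 in Ctr-KD and began at 356 or more in NSD2-KD. The mean was 294 ± 2.23 (SD, n = 2) in Ctr-KD and 455 ± 55.7 (SD, n = 3) in NSD2-KD, 1.55-fold higher. The log2 difference was 0.62 (SE 0.13, 95% interval 0.33 to 0.92), with an unadjusted p of 0.00116 and an adjusted p of 0.201 by limma. The adjusted p was 0.162 by edgeR and 0.103 by DESeq2. A log2 difference at least as high was found for 1.45% of tested genes. PSMD3 lies on chromosome 17, from 38137060 to 38154212 (hg19). Its canonical transcript of 2147 bases shares no exon position with another annotated gene, and no named pseudogene was found for it.

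PSMD11, PSMD1 and PSMD13 were the other non-ATPase genes without overlap between the groups, all with smaller differences. PSMD11, a lid subunit, had 272 and 235 normalized counts in Ctr-KD and 300, 279 and 288 in NSD2-KD (log2 difference 0.19, SE 0.12). PSMD1, a large scaffold, had 469 and 481 in Ctr-KD and 526, 495 and 482 in NSD2-KD (0.08, SE 0.10). NSD2-3 lay less than 1 count above Ctr-2 there, and PSMD13 had a difference of 0.14. None of the 3 had an unadjusted p under 0.05 by limma.

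PSMD2, the scaffold that docks ubiquitin shuttle factors, had more counts than any other member. Its normalized counts were 1404 and 1336 in Ctr-KD and 1392, 1350 and 965 in NSD2-KD. NSD2-3 alone was low, with a log2 value of -0.50 against the Ctr-KD mean, whereas NSD2-1 and NSD2-2 lay at 0.02 and -0.02. Its counting interval in NSD2-3 was below those of the other libraries. Over all tested genes, 9.30% were at least as low as PSMD2 in NSD2-3. With all libraries the difference was -0.17 (SE 0.16), and without NSD2-3 it was 0.0012. PSMD2 lies on chromosome 3, from 184016986 to 184026838 (hg19).

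The ubiquitin receptor PSMD4 had 287 and 287 normalized counts in Ctr-KD and 275, 291 and 271 in NSD2-KD. PSMD14, which cuts ubiquitin chains off the substrate, had 212 and 182 in Ctr-KD and 204, 203 and 195 in NSD2-KD. PSMD12, a lid subunit, had 142 and 153 in Ctr-KD and 145, 140 and 138 in NSD2-KD. The groups overlapped in each, and the log2 differences of -0.04, 0.03 and -0.07 were below their SE. The same was true of PSMD6 and PSMD8, whereas the difference of 0.11 for PSMD7 was about as large as its SE.

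PSMD5, PSMD9 and PSMD10 are chaperones that help to assemble the base of the regulatory particle and leave it when it is complete. PSMD5 had 151 and 151 normalized counts in Ctr-KD and 136, 151 and 164 in NSD2-KD. PSMD9 had 170 and 141 in Ctr-KD and 151, 174 and 136 in NSD2-KD. PSMD10 had 75.3 and 110 in Ctr-KD and 102, 106 and 64.4 in NSD2-KD. The groups overlapped for all 3 genes, and the Ctr-KD libraries of PSMD10 differed about as much as its NSD2-KD libraries. Their log2 differences lay between -0.04 and -0.0095.

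**Figure D3:**
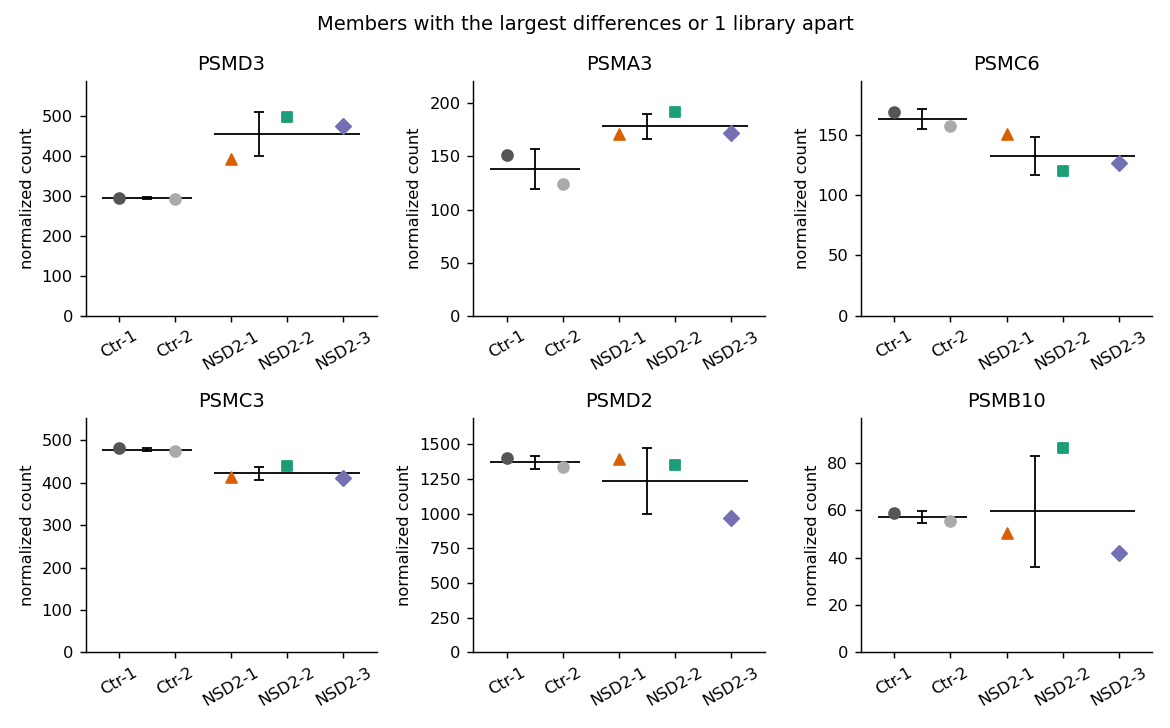
Normalized counts of 6 members are shown in each library (vertical axes start at 0), with the group mean as a line and the SD as a bar. PSMD3, PSMA3, PSMC6 and PSMC3 separate the groups without overlap, while PSMD2 is low in NSD2-3 alone. PSMB10 is highest in NSD2-2, where its counting interval overlaps those of Ctr-KD.

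The core and the regulatory particle were compared by the medians of their genes. The median log2 difference was 0.0087 over the 15 tested core genes and -0.0053 over the 20 regulatory genes, a difference of 0.014. Against the Ctr-KD mean, the core median minus the regulatory median was -0.06 in NSD2-1, 0.08 in NSD2-2 and 0.06 in NSD2-3. The sign thus varied between siRNAs, and their SD of 0.07 was larger than the difference itself. The core medians in these libraries were -0.04, 0.13 and 0.01 and the regulatory medians 0.02, 0.05 and -0.05. The SD of the log2 differences among genes was 0.12 in the core and 0.19 in the regulatory particle. It was 0.32 over all tested genes and 0.27 over those with a mean of at least 50 normalized counts.

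Levels between genes were compared per length. Per kb of coding sequence, PSMA7 was the highest member in Ctr-KD (761 normalized counts per kb), followed by PSMB2 (589), PSMD2 (503), PSMB4 (478) and PSMB5 (465). On this scale the inducible PSMB10 was the lowest of the tested genes (70.0), below PSMD5 (99.8) and PSMD12 (108). Among the catalytic subunit genes, PSMB5 and PSMB7 (389) lay above PSMB6 (317), and all 3 lay above PSMB10. The median gene had 320 in the core and 205 in the regulatory particle. The length used affects this order. Per kb of the whole canonical transcript, PSMA7 stayed the highest (588) and PSMD2 was at 470, but PSMB2, whose transcript of 4426 bases is mostly untranslated, was at 80.3. On that scale PSMB10 (58.7) was no longer the lowest, since PSMD12 (33.9), PSMD5 (44.6), PSMA5 (48.7), PSMC1 (56.2) and PSMD9 (57.0) lay below it. The isoform made in these cells was not measured.

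**Figure D4:**
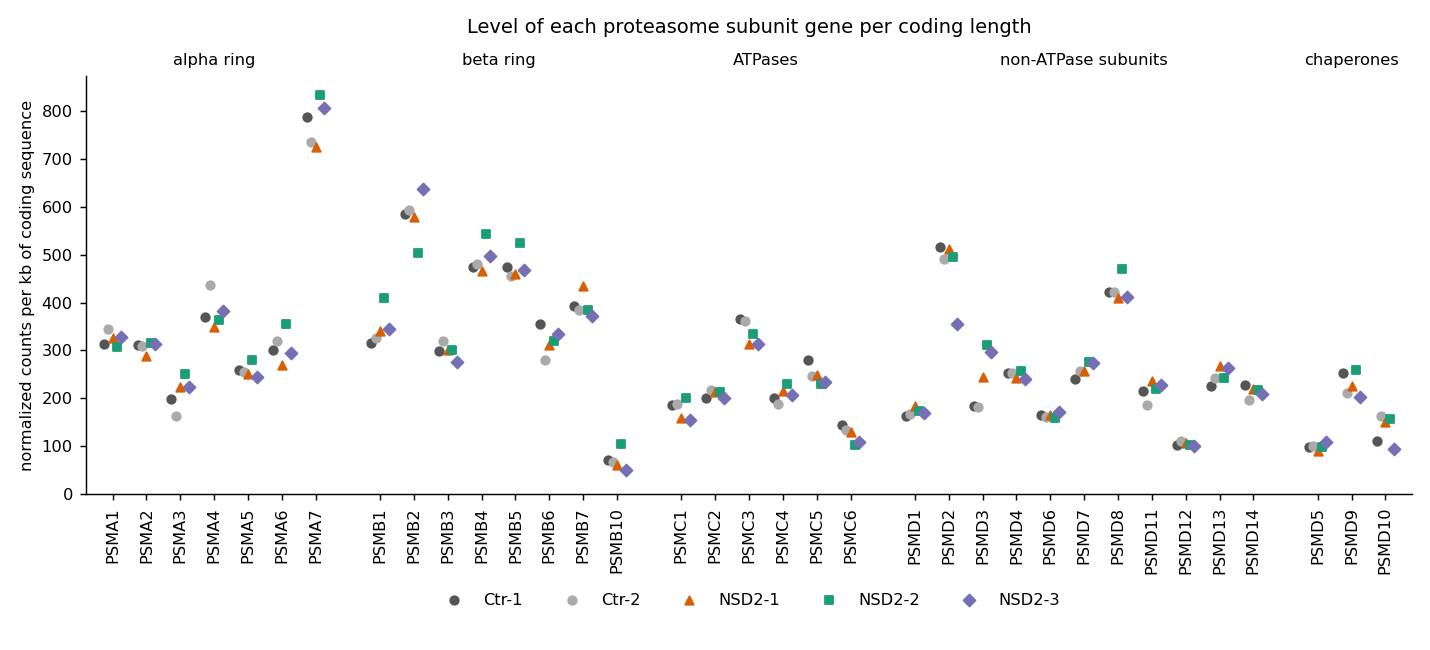
Points give normalized counts per kb of coding sequence for the 35 tested proteasome genes in each library (circles, Ctr-KD; triangles, NSD2-1; squares, NSD2-2; diamonds, NSD2-3), with genes by role along the horizontal axis. PSMA7 is the highest and PSMB10 the lowest member, and the median core gene (320 in Ctr-KD) lies above the median regulatory gene (205).

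The summed level of the core genes over that of the regulatory genes, per kb of coding sequence, was 1.21 and 1.22 in Ctr-KD and 1.17, 1.22 and 1.28 in NSD2-KD. The mean was 1.21 ± 0.01 (SD, n = 2) in Ctr-KD and 1.23 ± 0.06 (SD, n = 3) in NSD2-KD, so that the groups overlapped. The highest ratio was that of NSD2-3, the library in which PSMD2 was low. The summed core level was 5508 and 5471 in Ctr-KD and 5384, 5796 and 5576 in NSD2-KD. The summed regulatory level was 4561 and 4479 in Ctr-KD and 4593, 4754 and 4342 in NSD2-KD. NSD2-2 was the highest library for both particles, and the groups overlapped for both.

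The other genes of the pathway comprised 40 genes, all of them tested, and none passed an adjusted p of 0.05 by limma. At an unadjusted p under 0.05, 3 of the 40 were higher and 1 was lower, where 4.19% and 4.99% of all tested genes were. The median log2 difference was 0.02. Of the 5 assembly chaperones of the core, PSMG4 had 18.1 and 15.4 normalized counts in Ctr-KD and 24.8, 28.4 and 26.4 in NSD2-KD. POMP, which completes the core, had 224 and 230 in Ctr-KD and 225, 279 and 236 in NSD2-KD. PSMG4 had the only unadjusted p under 0.05 in this group, at a low count (log2 difference 0.63), while POMP overlapped between the groups. PSMG3 had the lowest difference (-0.15, SE 0.23).

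Among the 5 other activators and inhibitor genes, PSME3, the nuclear activator of the core, resembled PSMD2 in its pattern. It had 364 and 353 normalized counts in Ctr-KD and 374, 359 and 185 in NSD2-KD. Only NSD2-3 was low, and 2.43% of tested genes were at least as low in that library. The deubiquitinase UCHL5, of the 8 subunits and partners under other names, had 82.9 and 78.2 in Ctr-KD and 50.6, 62.3 and 73.2 in NSD2-KD. Its NSD2-KD libraries lay below both Ctr-KD libraries (log2 difference -0.39, adjusted p = 0.612 by limma). None of the 9 shuttle and unfolding factors, such as VCP, and none of the 6 genes of ubiquitin and its activation had an unadjusted p under 0.05. The highest and lowest log2 differences were 0.13 (PSME1) and -0.29 (PSME3) among the activators, 0.17 (TXNL1) and -0.39 (UCHL5) among the partners, and 0.18 (UBQLN4) and -0.12 (UFD1L) among the shuttle and unfolding factors. In the ubiquitin group they were 0.11 for RPS27A and -0.13 for UBA6. Each of these had an unadjusted p above 0.05.

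Of the 7 genes for the transcription of proteasome genes, 2 were higher and 1 was lower at an unadjusted p under 0.05 (4.19% and 4.99% of all tested genes). NFE2L1 itself had 963 and 979 normalized counts in Ctr-KD and 866, 1036 and 999.6 in NSD2-KD, with overlap. MAFK, a small MAF partner, had 155 and 141 in Ctr-KD and 236, 224 and 188 in NSD2-KD (log2 difference 0.54, SE 0.14, adjusted p = 0.280 by limma). MAFG, another, had 157 and 200 in Ctr-KD and 375, 224 and 284 in NSD2-KD (0.70, SE 0.21, adjusted p = 0.354 by limma). MAFK and MAFG were higher in 3 of 3 NSD2-KD libraries. The third small MAF gene, MAFF, had 112.4 and 101 in Ctr-KD and 115, 134 and 112.3 in NSD2-KD (0.17, SE 0.15). Its groups overlapped only because NSD2-3 lay just below Ctr-1. DDI2, the protease that cleaves NFE2L1 free, had 52.4 and 40.1 in Ctr-KD and 29.4, 25.1 and 38.1 in NSD2-KD, below Ctr-KD in all 3 (-0.58, SE 0.25, adjusted p = 0.544 by limma). NFE2L2, a related factor, had 316 and 322 in Ctr-KD and 432, 354 and 374 in NSD2-KD (0.27, SE 0.12, adjusted p = 0.550 by limma). Of the 7 subunit genes with the element TGACNNNGC before the start, PSMD3 had the log2 difference of 0.62 given above, and the other 6 lay between -0.14 and -0.0095. In PSMC4 and PSMD1, where the only match lay after the start, the differences were 0.16 and 0.08.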

How the data were processed

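Per the labels and the study's methods, poly(A) mRNA of IMR-90 cells was made into libraries with a kit that does not mark strand, and single-end reads were mapped to hg19 with HISAT2 and counted per gene with featureCounts. The gene annotation and strand setting of the counting are not given in the sources used here. The deposited signal is the read count of each gene divided by the authors with one DESeq2 size factor per library, so that a shift common to the whole transcriptome is not seen. Every value was a whole multiple of 1 read (100% within 0.01), so reads were recovered for edgeR 4.0.16 and DESeq2 1.42.0. A second table, the authors' own comparison with fold changes and p-values, was not used.

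NSD2-KD was compared with Ctr-KD by limma 3.58.1, its variance trended on level, using log2(normalized count + 1) of the 11313 genes whose mean was 10 or more. No covariate was used, p-values were adjusted by Benjamini-Hochberg, and 0.05 was the threshold. Fold differences on this scale understate those of low genes. The fits were also run on simulated data with the same spread in both groups. The libraries here differ from that, and no result rests on the simulation. Lengths, exon overlaps and pseudogenes came from GENCODE v44 on GRCh37, the assembly of hg19, for 37 of 37 members. The members, gene lists and motifs were chosen with earlier results of these data known. Values per library are given for the catalytic subunits, PSMB10, the 2 members of each of 4 roles with the largest difference in each direction, PSMD1, PSMD2, PSMD4, PSMD14 and the chaperones. Pathway genes are named at an unadjusted p under 0.05 or as the largest difference of a list in each direction. POMP, VCP, NFE2L1, NFE2L2, MAFF, PSMD13 and the marker genes given by name were named after their values were seen. The replicate numbers of the labels did not pair the libraries. Alternatives are given in the closing section.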

Additional observations from a re-analysis of the deposited data

How the results depend on the processing

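Under all 15 alternatives no proteasome gene passed an adjusted p of 0.05, with 0 lower and 0 higher each time a library was left out. PSMD3 kept an unadjusted p under 0.05 in 15 of 15 settings, with a log2 difference of 0.55 to 0.72 and an adjusted p of 0.0686 (without NSD2-1) to 0.9999 (without Ctr-2). Without Ctr-1 or Ctr-2 a single control was left, which is assumed to vary like the other group. PSMA3 had an unadjusted p under 0.05 in 12 of 15 settings. Among members that were lower, PSMC3 passed it with the correction for length and GC content and PSMC6 without NSD2-1. Leaving out libraries gave medians of -0.0016 to 0.05 for the core, -0.03 to 0.04 for the regulatory particle and -0.0077 to 0.05 for the core minus the regulatory particle. Genes called over the whole table numbered 10, against 1 without the trend, 2 with the correction for length and GC content, 16 by edgeR, 55 by DESeq2, 102 with the replicate block and 0 to 30 with a library left out.

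The block left NSD2-3 with no partner, so its log2 differences were the same as those without NSD2-3 (0.587 for PSMD3 in both). It is thus not a separate alternative for the size of a difference. The numbers pair no libraries by design. Correlations of deviations from the group means lay between -0.0267 and 0.0267. That range is symmetric by construction, since the deviations of Ctr-1 and Ctr-2 mirror each other. Because these deviations were near counting error, the correlations could hardly show a pairing. With the replicate block the adjusted p of PSMD3 was 0.100, and the differences of PSMB10 (0.20), PSMD10 (0.19), PSMD2 (0.0012) and PSMD9 (0.066) turned positive. Other changes of sign were all in differences near 0, and their cause was not tested. PSMB10 was at 0.037 with quantile normalization, 0.035 by edgeR and 0.051 by DESeq2. The correction for length and GC content gave 0.0010 for PSMA1, -0.024 for PSMB6, -0.0031 for PSMB7, 0.0086 for PSMD10, 0.024 for PSMD12 and 0.045 for PSMD5. Of 250 such values of named members, 13 changed sign. With a library left out, the ranges that crossed 0 were -0.11 to 0.037 (PSMA1), -0.31 to 0.20 (PSMB10), -0.13 to 0.044 (PSMB2), -0.0016 to 0.094 (PSMB5), -0.14 to 0.20 (PSMB6), -0.042 to 0.071 (PSMB7), -0.31 to 0.23 (PSMD10), -0.081 to 0.14 (PSMD14), -0.26 to 0.0012 (PSMD2), -0.074 to 0.059 (PSMD5) and -0.15 to 0.11 (PSMD9).

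With 2 against 3 libraries of at most 2845063 reads on genes, the median SE of the members was 0.12 on the log2 scale, and PSMB10 and PSMD10, the tested members with the fewest counts, had the widest intervals.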

Other observations

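Several transcripts named after subunit genes lie beside or antisense to them, and their values are given without a test of the relation. PSMA3-AS1 had 52.4 and 47.3 normalized counts in Ctr-KD and 39.6, 39.3 and 40.0 in NSD2-KD, so that all NSD2-KD libraries lay below both Ctr-KD libraries (log2 difference -0.32, adjusted p = 0.664 by limma). PSMA3 lay above Ctr-KD in the same libraries. PSMD5-AS1 had 31.4 and 24.7 in Ctr-KD and 23.0, 22.9 and 23.4 in NSD2-KD (-0.26, adjusted p = 0.798 by limma). PSMD6-AS2, whose exons overlap those of PSMD6, had 8.57 and 11.3 in Ctr-KD and 6.44, 2.18 and 5.86 in NSD2-KD, and was too low to be tested. Since the library kit does not mark strand, reads of an antisense transcript and of its partner cannot be told apart where they overlap. Among these pairs this applies to PSMD6, since PSMA3 and PSMD5 share no exon position with another annotated gene.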
